A study of Mus musculus with 4 samples.

Results

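Multipotent germline stem (mGS) cells were set against germline stem (GS) cells, gene by gene, on 1 Affymetrix mouse expression array each. GS cells are the spermatogonial stem cells of the testis grown in culture, and mGS cells are pluripotent cells that can arise in such cultures. All genes that a single gene symbol could be given to were taken, each by its probe set of highest mean signal, which gave 18193 genes. A floor was set at the median signal of an array, 82.7 in arbitrary units after the 4 arrays of the series were brought to 1 distribution, and values under it were raised to it. Above the floor on at least 1 of the arrays were 11980 genes, which were compared, and the other 6213 were under it on both. Nearest to the floor on either side were Tmem67 and Edn1, with higher readings of 82.7 each.

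The GS array held total RNA of cells labelled as mouse germline stem cells, kept in a modified StemPro-34-based medium. The mGS array held total RNA of cells labelled as multipotent germline stem cells, kept in a standard embryonic stem cell medium. Cell type and medium thus changed together, and their parts in any difference cannot be told apart. Neither label gives a strain, age, passage or feeder layer, and 1 array for each leaves no measure of the spread between cultures. The other arrays of the series, from the embryonic stem (ES) line R1 in the same medium as mGS cells and from Trp53 knockout GS cells labelled ICR in the medium of GS cells, entered the normalization. Their signals stand beside a result where they bear on it. The ES array is from 1 cell line and the knockout array from 1 culture, so neither is a replicate. In RNA from a whole culture, fewer cells of a type and less RNA per cell cannot be told apart.

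The labels were first set against marker genes. These were chosen with earlier results of these data known, so they describe the arrays and are no independent check. All 9 pluripotent markers lay past 2-fold on the mGS side and all 8 germline stem markers lay past 2-fold on the GS side, with median log2 differences of 3.83 and -4.99. Their summed signals were 7629 on the GS and 99161 on the mGS array for the pluripotent markers, and 65308 and 3553 for the germline stem markers. Of 15 fibroblast markers, 10 were compared and 6 were higher, namely Fn1, Acta2, Tagln, S100a4, Mmp2 and Col1a2, while Col3a1, Pdgfrb, Postn, Lum and Dcn were under the floor on both arrays. The summed fibroblast signal was 3440.3 on the GS array, 15493 on the mGS array, and the ES and knockout arrays gave 59353 and 6442. Among the markers of Sertoli cells, Leydig cells, leukocytes and trophectoderm, the highest sum on either array was 1488, that of the leukocyte markers on the mGS array. The primitive endoderm sum was 3439 on the GS and 472 on the mGS array, and most of the former came from Afp, the fetal serum protein alpha-fetoprotein, at 2646 and 35.5.

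Differences are given as the mGS over the GS signal, and a pair of signals is always in the order GS, mGS. A gene is called higher or lower here when the fold reached 2, a description of size and not a test. Where 1 of the signals was under the floor, the fold was taken against the floor and is a lower bound, written as at least. By this rule 15.3% of the genes compared were higher on the mGS array (1838 genes) and 16.5% were lower (1976 genes), 31.8% in either direction, and the median log2 difference over all of them was -0.041. At 4-fold the shares were 5.09% higher and 4.08% lower. These shares are the background for each list of genes that follows.

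Spermatogonial stem cells are maintained by growth factors of their niche and by factors such as Zbtb16, and they remain committed to the male germ line. Pluripotent stem cells divide fast, ferment much of their glucose to lactate, spend threonine and glycine on one-carbon units, and grow as compact epithelial-like colonies. Their state rests on a network around Pou5f1, Sox2 and Nanog that reads signals of the LIF, BMP, Nodal, FGF and Wnt families. The plot of the lists shows how the genes of metabolism, adhesion, signalling and transcription were spread.

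**Figure D1:**
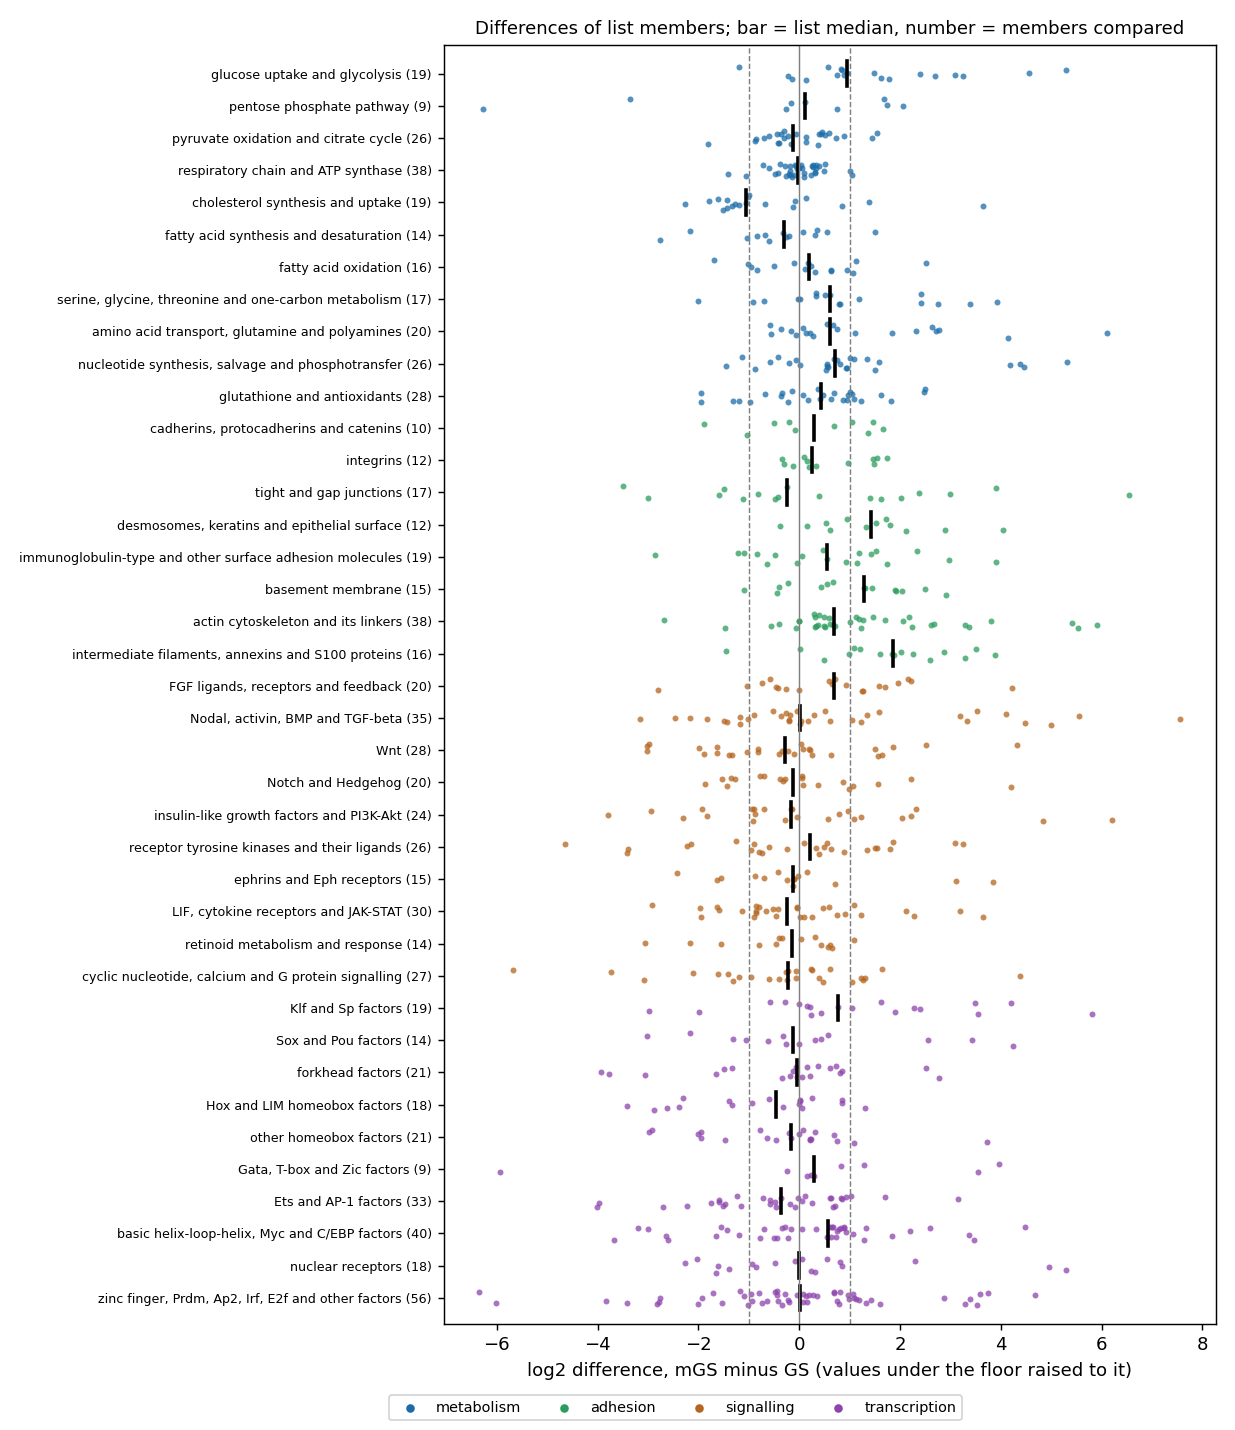
Each point is the log2 difference between the mGS and the GS array (horizontal axis) of a gene, in lists of metabolism, adhesion, signalling and transcription factors (vertical axis). The annexin and filament list, with a median of 1.86, lies farthest to the right, and the cholesterol list, with a median of -1.07, farthest to the left.

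Over the metabolic lists together, 53 of 232 genes compared were higher and 29 were lower on the mGS array. Their median log2 difference was 0.19. Glucose uptake and glycolysis stood on the higher side. Of its 19 genes compared, 9 were higher, 1 was lower and 9 were within 2-fold, and the median was 0.95. ACGTG is a form of the core bound by the hypoxia-inducible factors. Ldha and Pgk1 hold these letters, while Pfkp, with the greatest difference of the list, does not. The promoters of these 3 genes are shown for that reason. They are the 250 bases before the gene start from RefSeq, build GRCm38.p6, written 5′ to 3′ along the gene, for Ldha at chr7:46845554-46845803, plus strand, for Pgk1 at chrX:106186850-106187099, plus strand and for Pfkp at chr13:6648772-6649021, minus strand. Capitals mark ACGTG or its reverse complement CACGT. The other form of the core, GCGTG, was not searched or marked, and the Pfkp window holds it.
Ldha: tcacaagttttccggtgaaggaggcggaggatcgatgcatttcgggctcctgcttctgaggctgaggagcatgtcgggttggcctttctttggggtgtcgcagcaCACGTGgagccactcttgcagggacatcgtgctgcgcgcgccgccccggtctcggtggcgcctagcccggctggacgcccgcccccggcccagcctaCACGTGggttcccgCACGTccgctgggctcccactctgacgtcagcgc
Pgk1: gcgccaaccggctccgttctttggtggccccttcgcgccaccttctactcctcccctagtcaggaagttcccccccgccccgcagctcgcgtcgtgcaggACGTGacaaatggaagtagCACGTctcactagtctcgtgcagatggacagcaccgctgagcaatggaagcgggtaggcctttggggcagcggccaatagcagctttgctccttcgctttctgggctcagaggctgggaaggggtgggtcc
Pfkp: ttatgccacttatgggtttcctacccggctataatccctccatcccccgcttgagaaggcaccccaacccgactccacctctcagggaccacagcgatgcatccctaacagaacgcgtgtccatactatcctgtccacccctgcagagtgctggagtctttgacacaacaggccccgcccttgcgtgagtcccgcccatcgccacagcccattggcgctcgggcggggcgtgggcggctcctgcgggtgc

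Ldha, which turns pyruvate into lactate, read 2776 and 18075 and was 6.51-fold higher on the mGS array. Its promoter holds 5 matches, the nearest 34 bases before the gene start. Each strand was counted, so every CACGTG, which reads the same on both, counts once on each. For Ldha 2 promoters were listed, and the first that holds the letters is shown. Pgk1, the phosphoglycerate kinase of glycolysis, read 1339 and 12739.6 and was 9.52-fold higher, with 2 matches at 131 and 150 bases before the start. Pfkp, the platelet-type phosphofructokinase, read 209.6 and 8254, with no match to ACGTG or CACGT in its window. Its signals on the ES and knockout arrays were 1658 and 451. Over the list, 11 of 21 promoters (52.4%) held ACGTG on either strand, against 25.8% of the promoters of the genes compared and 18.5% of all 27025 promoters. The shares were 29.2% for the citrate cycle, 24.1% for the respiratory chain and 23.5% for cholesterol synthesis. Hk2, Pfkm, Pgam1, Pkm and Slc16a1, within 2-fold, hold the letters as well. A match is a stretch of letters and no evidence of binding.

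The other glycolytic genes that were higher cover the path from glucose entry to lactate export. Slc2a3, the high-affinity glucose transporter of fast-growing cells, read 1648 and 14099, and was 8.56-fold higher. Slc2a1, the widespread glucose transporter, read 3217 and 11112, and was 3.45-fold higher. Both signals were high on both arrays, so these are differences between genes already well above the floor. Pfkl, the liver-type phosphofructokinase, read 121 and 2867, a 23.7-fold difference, while Pfkm, the muscle type, differed by only 0.13 on the log2 scale. Tpi1, which interconverts the triose phosphates, was 3.08-fold higher at 2297 and 7065. Slc16a3, the lactate exporter, read 52.5 and 434 and was at least 5.26-fold higher. Within 2-fold were the hexokinases Hk1 and Hk2, pyruvate kinase Pkm, lactate dehydrogenase Ldhb and the pyruvate dehydrogenase kinase Pdk1. Aldoc, the brain-type aldolase, was the single member that was lower, at 2758 and 1206.

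The pentose phosphate pathway, which yields NADPH and ribose, did not move as a block, with 3 genes higher, 2 lower and 4 within 2-fold. Prps2, which makes the activated ribose for nucleotide synthesis, read 524 and 2172 and was 4.14-fold higher. Rpia, the ribose-5-phosphate isomerase, went the other way at 3142 and 307 and was 10.2-fold lower. Rpe, the epimerase acting on the same substrate pool, read 1458 and 4666 and was 3.2-fold higher. The pair of isomerising enzymes thus lay on opposite sides. Both oxidative genes compared, Pgls and Pgd, were within 2-fold, at log2 differences of 0.11 and -0.25.

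Mitochondrial genes differed little between the arrays. In the citrate cycle list 23 of 26 genes compared, and in the respiratory chain and ATP synthase list 34 of 38, were within 2-fold. Pdha1, the E1 alpha subunit of pyruvate dehydrogenase, read 1699.5 and 4939.7 and was 2.91-fold higher. Me1, the cytosolic malic enzyme, read 836 and 238 and was 3.51-fold lower. Mdh1, the cytosolic malate dehydrogenase, read 2350.2 and 6383 and was 2.72-fold higher. Of the respiratory chain, Ndufb9 of complex I was lower at 15319 and 5721, while Uqcrq of complex III was higher at 3138 and 6521. The medians of both lists, -0.12 and -0.025, changed sign with the scaling of the arrays, being 0.04 and 0.24 on the deposited values.

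Cholesterol synthesis and uptake stood on the lower side, with 11 of 19 genes compared lower, 2 higher and a median of -1.07. The promoters of Hmgcs1, Idi1 and Cyp51 are shown because these are the genes with the lowest differences of the list, and they hold the letters CCAAT, the box bound by the factor NF-Y. They are again the 250 bases before the gene start from RefSeq, build GRCm38.p6, 5′ to 3′, for Hmgcs1 at chr13:119690101-119690350, plus strand, for Idi1 at chr13:8885356-8885605, plus strand and for Cyp51 at chr5:4104698-4104947, minus strand. Capitals mark CCAAT or its reverse complement ATTGG.
Hmgcs1: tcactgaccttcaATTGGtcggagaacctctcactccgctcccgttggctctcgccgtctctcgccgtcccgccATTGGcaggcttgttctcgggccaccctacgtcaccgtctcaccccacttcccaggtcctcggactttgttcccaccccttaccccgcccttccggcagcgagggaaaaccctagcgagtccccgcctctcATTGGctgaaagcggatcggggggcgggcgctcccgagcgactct
Idi1: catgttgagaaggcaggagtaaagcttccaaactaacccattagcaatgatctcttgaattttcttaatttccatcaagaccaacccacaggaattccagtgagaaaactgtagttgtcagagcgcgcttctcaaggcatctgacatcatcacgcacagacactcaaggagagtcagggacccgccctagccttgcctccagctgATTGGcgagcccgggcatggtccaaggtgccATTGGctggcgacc
Cyp51: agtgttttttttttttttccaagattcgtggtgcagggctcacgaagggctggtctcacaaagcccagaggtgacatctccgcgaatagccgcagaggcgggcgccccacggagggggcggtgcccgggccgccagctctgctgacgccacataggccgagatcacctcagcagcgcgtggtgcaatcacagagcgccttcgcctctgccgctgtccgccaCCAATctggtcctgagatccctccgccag

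Of the 17 cholesterol promoters found, 16 (94.1%) held CCAAT on either strand, against 40.7% of the genes compared and 37.5% of all promoters. The letters are also in Ebp and Pmvk, which were higher, in Mvd, Mvk and Sc5d, which were within 2-fold, and in 62.5% of the citrate cycle promoters, so they do not separate the lower genes. GGGCGG, the Sp1 box, was also in 94.1% of them, against 64.8% and 35.4%. The 10 motifs searched, on both strands, were ACGTG and the E-box CACGTG that contains it, the longer E-box TCACGTGA that contains both, the sterol element of the LDL receptor promoter, the Sp1 box GGGCGG, the Egr box GCGGGGGCG, the CCAAT box, the TATAAA box, the CpG run CGCGCG and the Ets box CCGGAAGT. The sterol element in this exact form and TCACGTGA were in none of the cholesterol promoters, and nothing is drawn from that about the factors.

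Hmgcs1, which makes HMG-CoA at the start of the path, read 25033 and 7203 and was 3.48-fold lower on the mGS array. Idi1, which isomerises the isoprenoid unit, read 9285 and 3045 and was 3.05-fold lower. Fdps, which joins these units into farnesyl diphosphate, read 14564 and 5385 and was 2.7-fold lower. Steps after the sterol ring is closed were lower as well. Cyp51, the lanosterol demethylase, read 4301 and 896, and Dhcr7, which makes the last reduction to cholesterol, read 3514 and 1235 and was 2.85-fold lower. The regulators Srebf2, the transcription factor of the path, and Insig1, which retains its activator in the endoplasmic reticulum, read 2451 and 966 and 2984 and 1106. On the knockout array, from a culture in GS medium, 6 of the 11 lower genes were nearer to their mGS signal, among them Cyp51 at 1403, and 5 were nearer to their GS signal. Of the latter, Dhcr7 at 6226 and Srebf2 at 3902 were above the GS array. Ebp, the sterol isomerase, ran against the list at 133 and 1665, 12.5-fold higher, as did Pmvk, the phosphomevalonate kinase, at 188 and 489.5.

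Fatty acid synthesis was mixed around the genes that feed it. Acss2, which makes acetyl-CoA from acetate, read 1235 and 181 and was 6.83-fold lower. Acsl3, which activates long-chain fatty acids, read 4400.3 and 982 and was 4.48-fold lower. Elovl6, which lengthens palmitate, was higher at 1146 and 3240.2, and Fasn, Acaca and both Scd genes measured were within 2-fold. In fatty acid oxidation 3 of 16 genes compared were higher and 2 lower. Etfb, which passes electrons from the oxidation to the respiratory chain, read 602 and 3452 and was 5.73-fold higher, and Cpt2, the inner carnitine transferase, read 1440.4 and 444 and was 3.25-fold lower.

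One-carbon metabolism and amino acid supply had more genes higher than lower on the mGS array. Of 17 genes of serine, glycine and one-carbon metabolism compared, 6 were higher and 1 was lower. Gldc, the glycine decarboxylase that charges folate with one-carbon units, read 179.5 and 2709 and was 15.1-fold higher, with 2732 on the ES and 192 on the knockout array. Cth, which makes cysteine from cystathionine, read 310.4 and 3233 and was 10.4-fold higher. Psat1, a step of serine synthesis, read 2029.8 and 10771 and was 5.31-fold higher, while Phgdh, the step before it, was within 2-fold at -0.91 on the log2 scale. Mthfd1l, the mitochondrial formate maker, was 6.73-fold higher. The 1 lower member was Mtr, the methionine synthase, at 3714 and 929.

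None of the 20 genes of amino acid transport, glutamine and polyamines compared was lower, and 8 were higher. Slc7a3, a carrier of cationic amino acids, read 9.72 and 5726 and was at least 69.3-fold higher, against 7501 on the ES and 203 on the knockout array. Slc7a7, a light chain that exchanges such amino acids, read 204 and 3588 and was 17.6-fold higher. Other carriers, Slc7a1 and Slc7a5, were within 2-fold, and so was Slc3a2, the heavy chain that pairs with such light chains. Not every carrier thus differed. The polyamine enzymes Odc1, which makes putrescine, and Srm, which makes spermidine, read 2769.8 and 13773 and 1508 and 9852. Asns, the asparagine synthetase, was 6.22-fold higher at 1473 and 9163, though the knockout array read 5588. Got1, the cytosolic aspartate aminotransferase, was 6.87-fold higher.

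Of 26 genes of nucleotide synthesis, salvage and phosphate transfer compared, 9 were higher and 2 lower. Upp1, the uridine phosphorylase, read 328 and 13055 and was 39.9-fold higher, with 1727 on the knockout array. Pnp, the purine nucleoside phosphorylase, read 394 and 7184 and was 18.2-fold higher. These enzymes release the bases of nucleosides. Ckb, the brain creatine kinase, read 146 and 3200.2 and was 21.9-fold higher. Ak1, the cytosolic adenylate kinase, read 87.8 and 1822 and was 20.8-fold higher. Cad, which starts pyrimidine synthesis, was lower at 5118 and 1869, while Gart of purine synthesis was higher at 2405 and 7244.

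Glutathione genes moved in both directions, with 8 of 28 higher and 4 lower. Gclc, which limits glutathione synthesis, read 10539 and 2718 and was 3.88-fold lower. Gsta4, a transferase that clears lipid peroxidation products, read 2662 and 14754 and was 5.54-fold higher, and its knockout signal was 681. The transferases split, since Gstm5 was lower at 6154 and 1594 and Mgst3, a membrane-bound one, was higher at 242 and 1365. Mt1, the metallothionein that binds zinc, was lower at 31486 and 12629.

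**Figure D2:**
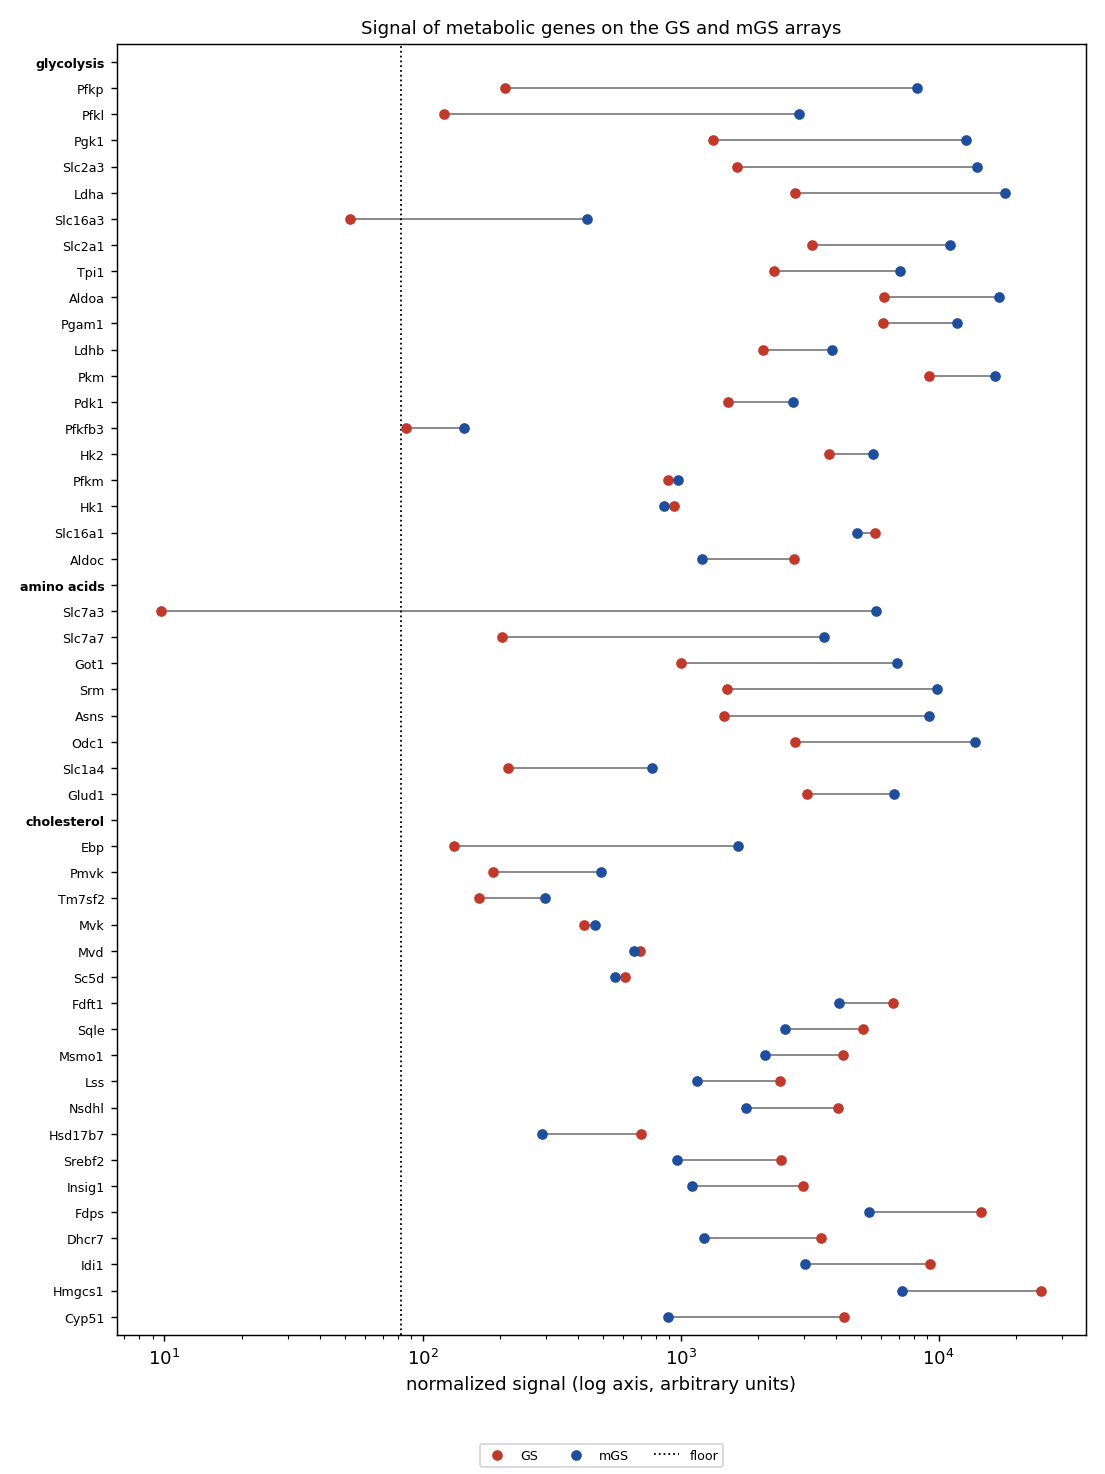
Signals on the GS and the mGS array (horizontal log axis, arbitrary units) of all glycolysis and cholesterol genes compared and of the amino acid and polyamine genes past 2-fold, 1 line for each gene, with the dotted line at the floor of 82.7. Of those past 2-fold, the glycolytic genes run to the right from GS to mGS except Aldoc, and the cholesterol genes to the left except Ebp and Pmvk.

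Adhesion and the cytoskeleton had the highest share of higher genes. Of 139 genes compared, 67 were higher and 14 lower, and the median log2 difference was 0.96. Fibroblast markers moved with them, with 6 of 10 compared higher and summed signals of 3440.3 and 15493, and Acta2, Tagln and S100a4 are on both kinds of list. The part of fibroblast RNA in these results was not tested. Col1a1 differed by -0.21 on the log2 scale.

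Cell junctions differed in their make-up. Cdh1, the E-cadherin of epithelial cells, read 1541 and 4894 and was 3.18-fold higher on the mGS array. The knockout array read 55.8, so the GS cultures themselves were apart in Cdh1. Cdh2, the N-cadherin, was 2.74-fold higher, while Cdh4 was lower at 377 and 101. Ctnnb1, which links cadherins to actin and carries Wnt signals, was within 2-fold. Of the tight and gap junction genes, 7 of 17 compared were higher and 5 lower. Ocln, the strand protein occludin, read 1519 and 135 and was 11.3-fold lower. Marveld2, which seals the corners between cells, read 962 and 119.9 and was 8.02-fold lower. Tjp1, the scaffold ZO-1 beneath them, read 9205 and 3071 and was 2.997-fold lower. All of these were near their GS signals on the knockout array, at 1247, 947 and 6379.

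Claudins, the pore-forming strand proteins, lay on the opposite side. Cldn6, a claudin of early embryonic epithelium, read 38.4 and 656 and was at least 7.94-fold higher. Cldn7 read 18.05 and 432, Cldn4 read 9.91 and 335 and Cldn3 read 64.8 and 253, so all 4 were under the floor on the GS array. Cldn5 and Cldn12 were within 2-fold. Of the gap junction proteins, Gja1, the connexin 43, reached 7716 on the mGS array from 54.9, and Gjb5 read 8.28 and 1243, while Gjb2 was lower at 179 and 30.7. Panx1, a channel protein related to gap junctions, was lower too, at 693 and 245.

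Desmosomal and simple-epithelial genes were higher in 7 of 12 and lower in none. Perp, a membrane protein of desmosomes, read 5.52 and 1354 and was at least 16.4-fold higher. The keratins Krt8 and Krt18, which pair in simple epithelium, read 98.8 and 734 and 268 and 1160.4. Dsp, which ties keratins to desmosomes, read 29.6 and 271 and was at least 3.28-fold higher. Epcam, the surface protein of epithelial and germ line stem cells, was within 2-fold at -0.39 on the log2 scale.

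Surface molecules of the immunoglobulin type split between the arrays. Pecam1, a homophilic adhesion molecule of endothelium and early embryo, read 108 and 1616 and was 15.02-fold higher, with 332 on the ES array. Prom1, the membrane protein prominin, read 41.6 and 647 and was at least 7.83-fold higher. Mcam read 3489 and 477 and was 7.32-fold lower. Cadm1 was also lower, at 2012 and 864, with a knockout signal of 1631. Cd24a, a small glycoprotein, read 219 and 1111, but 1224 on the knockout array. Thy1 and Cd9, long used to sort spermatogonial stem cells, were within 2-fold.

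Of integrins, the receptors of the matrix, 4 of 12 were higher and none was lower. Itgav, which pairs in fibronectin and vitronectin receptors, read 350.5 and 1021. Itga6 and Itgb1, which form a laminin receptor on spermatogonial stem cells, were within 2-fold, at -0.31 and -0.34. Basement membrane genes were higher in 8 of 15. Lama1, the laminin chain of the early embryo, read 106 and 802 and was 7.55-fold higher. Lamc1, the common gamma chain, read 413 and 1563 and was 3.79-fold higher. Col18a1, a collagen of basement membranes, was 5.67-fold higher. Lama3, an epithelial chain, was 4.13-fold higher at 546 and 2256, but the ES array read 102. Dag1, the dystroglycan that receives laminin, was lower at 4404 and 2056.

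Genes of actin and its linkers were higher in 17 of 38 and lower in 2. Actin itself was level, with Actb at a log2 difference of -0.07 and Actg1 at 0.67. Marcks, which binds actin and membrane, read 166 and 1614 and was 9.74-fold higher. Ezr, the ezrin of microvilli, read 705 and 4315 and was 6.12-fold higher, though another of its probe sets gave a log2 difference of -0.095. Tpm2, a tropomyosin, read 141 and 897 and was 6.36-fold higher. Smooth-muscle Acta2 and Tagln, which are also fibroblast markers, read 226 and 2319 and 22.4 and 1162, with 10566 and 6541 on the ES array. Pfn2, a profilin, ran against the list at 5740.3 and 894.

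Intermediate filament, annexin and S100 genes had the highest median of all lists, 1.86, with 12 of 16 higher. Vim, the vimentin of mesenchymal cells, read 532 and 7871 and was 14.8-fold higher. Vim read 21544 on the ES and 1021 on the knockout array. Anxa6, an annexin that binds membranes with calcium, read 171 and 1938 and was 11.4-fold higher, and Anxa3 read 94.6 and 692. S100a10, which forms a complex with annexin A2, read 292 and 2869 and was 9.83-fold higher. In all 6 of 7 annexins compared were higher, and Anxa7 was within 2-fold. With ES in place of mGS the median of this list was 3.17, and the summed fibroblast signal there was 59353. Nes, the nestin of progenitor cells, was the single lower member at 345 and 126, and another of its probe sets gave 0.18 on the log2 scale.

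Signalling genes were divided evenly. Of 265 compared, 70 were higher and 62 lower, and the median was -0.064. The ligands of the Nodal branch stood out on the higher side, and the Wnt receptors and JAK-STAT genes were split within their own families.

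In the list of Nodal, activin, BMP and TGF-beta, 12 of 35 genes were higher and 9 lower. Nodal, the ligand that keeps activin signalling going in pluripotent cells, read 62.9 and 2653 and was at least 32.1-fold higher. Its antagonists Lefty1 and Lefty2 read 11.9 and 1836 and 25.5 and 753. Gdf3, a related ligand of pluripotent cells, read 44.3 and 3885 and was at least 47.00-fold higher. All of these were under the floor on the GS array, so each fold is a bound. Bmp4, the BMP that induces Id genes, read 45.8 and 1421 and was at least 17.2-fold higher, and Bmp7 went the other way at 374 and 32.2. The Id genes, inhibitors of helix-loop-helix factors, were split: Id2 read 22.1 and 828 and Id1 read 709 and 1656, while Id4, a marker of spermatogonial stem cells, read 2750.4 and 308 and was 8.93-fold lower. Id3 was lower at 2334 and 1029, but its knockout signal was 165.

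TGF-beta itself was lower. Tgfb1, the ligand, read 704 and 199 and was 3.54-fold lower, with 226 on the knockout array. The receptors Tgfbr3, the co-receptor betaglycan, and Tgfbr2 read 588 and 107 and 231 and 64.6. On the ES array they read 421 and 621. The signal carriers Smad3, Smad4 and Smad5 were within 2-fold. Smad2 was lower at 3974 and 1476, but its other probe set gave a log2 difference of 0.50. Smad7, the inhibitor, was higher at 310.3 and 791.

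FGF genes were higher in 8 of 20 and lower in 2. Fgf4, the autocrine FGF of pluripotent cells, read 111 and 431 and was 3.9-fold higher. Fgfbp1, which frees FGF from the matrix, read 23.5 and 1541 and was at least 18.6-fold higher. Fgfr2 was the 1 receptor that was higher, at 89.2 and 414, and Fgfr1, Fgfr3 and Fgfr4 were within 2-fold. The feedback genes Spry4 and Spry2 read 330.0 and 990.1 and 1005 and 2416. Dusp5, a phosphatase of ERK, went the other way at 1075 and 154, while its relatives Dusp4 and Dusp6 were within 2-fold. Etv5, an ETS factor that spermatogonial stem cells need, was 3.25-fold higher on the mGS array at 1955 and 6360.2, with 507 on the knockout array.

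Within the Wnt list, 6 of 28 genes were higher and 10 lower. The Frizzled receptors lay on both sides. Fzd2 read 2626 and 323 and was 8.14-fold lower, and Fzd3 read 1022 and 258 and was 3.97-fold lower. Fzd5 read 111 and 2217 and was 20.02-fold higher, and Fzd7 read 901 and 2668 and was 2.96-fold higher. Other probe sets of Fzd3 gave log2 differences from -2.31 to -0.069, and that of Fzd7 gave 0.56. Fzd4 and Fzd6 were within 2-fold, so by the probe sets used 2 of the 6 receptors compared lay on each side and 2 between. Of the nuclear factors, Tcf7l1, the repressor of the pluripotency network, read 132 and 755 and was 5.74-fold higher, while Tcf7l2 was lower at 379 and 103. Sfrp2, a secreted Wnt inhibitor, read 2525 and 313, and Sp5, a Wnt target, read 653 and 74.2. On the knockout array these were 286 and 87.3, near the mGS signals, so this pair set the GS array apart from both. Axin2, a common readout of Wnt, was within 2-fold at 0.21 on the log2 scale.

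Notch and Hedgehog genes had 4 higher and 5 lower of 20. Gli2, an activator of Hedgehog targets, read 30.9 and 1514 and was at least 18.3-fold higher, and Gli3, chiefly a repressor, read 1664 and 574 and was 2.9-fold lower. Smo, the receptor that starts the signal, was lower at 743 and 291, and Ptch1, its inhibitor, was higher at 1264 and 2646. Hes1, a Notch target, read 1099 and 302 and was 3.64-fold lower. Notch1 and its ligand Jag1 were lower at 607 and 252 and 2113 and 784, but were at 143 and 425 on the knockout array. Notch3 was higher at 72.9 and 383.

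Of the insulin-like growth factor and PI3K genes, 7 of 24 were higher and 5 lower. Eras, a Ras protein of ES cells that drives PI3K, read 36.99 and 6084 and was at least 73.6-fold higher. Inpp5d, the phosphatase SHIP1, read 50.5 and 2351 and was at least 28.4-fold higher, with 331 on the ES array. Sgk1, a kinase next to Akt, read 1924 and 9614 and was 4.996-fold higher. The ligand and receptor went the other way. Igf2, an imprinted growth factor, read 3511 and 252 and was 13.9-fold lower, though another of its probe sets gave -0.10 and the knockout array read 436. Igf1r, the receptor, read 2366 and 669 and was 3.54-fold lower. Igfbp2, a binding protein, was 4.68-fold higher, and Igfbp5 was lower at 409 and 26.8. Pik3r3, a regulatory subunit of PI3K, was 7.64-fold lower at 1637 and 214, while Akt1 and Akt2 were within 2-fold.

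Receptor tyrosine kinases were lower in 6 and higher in 7 of 26 genes, ligands included. Ret, the receptor through which GDNF maintains spermatogonial stem cells, read 2076 and 66.9. Flt1, a receptor of VEGF, read 884 and 70.1 and was at least 10.7-fold lower, with 125 on the knockout array. Ddr1, a collagen receptor, read 7949 and 1786 and was 4.45-fold lower, though its other probe sets gave log2 differences from -1.39 to 0.42. Kit, the receptor of differentiating spermatogonia, was higher on the mGS array at 80.4 and 700.1, and so was its ligand Kitl at 17.5 and 288. The PDGF ligands parted, with Pdgfb at 1798 and 171 and Pdgfc at 57.7 and 788.

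Of the Eph family, which guides cells by contact, 10 of 15 genes were within 2-fold. Epha4 read 16.3 and 1192 and was at least 14.4-fold higher, and Ephb1 read 443 and 81.6 and was at least 5.35-fold lower. Efnb2, a transmembrane ligand, was 8.64-fold higher and its relative Efnb3 was lower at 278 and 94.2.

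Cytokine signalling was divided between family members. Jak1, the kinase that serves the LIF receptor, read 8316 and 1103 and was 7.54-fold lower. Jak2 was lower at 323 and 65.8, and Jak3, the kinase of lymphoid cytokine receptors, was higher at 67.7 and 402. Stat3, the factor that LIF activates, read 9887 and 3192 and was 3.1-fold lower, with 0.31 on the log2 scale from another probe set and a knockout signal of 3741. Stat5a was lower at 609 and 157, whereas Stat4 and Stat6 were higher at 3.48 and 756 and 296 and 1277. Socs2, a feedback inhibitor, read 294 and 3700.4 and was 12.6-fold higher, while Socs3, the feedback inhibitor of Stat3, differed by 0.023 on the log2 scale. The receptors Lifr and Il6st were within 2-fold.

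Retinoid genes were within 2-fold in 10 of 14. Crabp2, which carries retinoic acid to its receptors, read 2696 and 322 and was 8.37-fold lower. Aldh1a2, which makes retinoic acid, was lower at 357 and 121. Rarg, the receptor most tied to spermatogonia, was higher at 863 and 1824.

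The Hippo pathway restrains growth through the co-activator Yap1. Ccn2 and Ccn1, common targets of Yap1, read 88.6 and 1888 and 76.7 and 487, and Ccn2 was 21.3-fold higher. The knockout array read 699.5 for Ccn2. Yap1 itself was 3.72-fold higher at 789 and 2937, but another probe set gave -0.047. Sav1 and Mob1a, partners of the kinases that restrain it, were lower at 3037 and 996 and 4516 and 2004. Nf2, of the same pathway, went the other way at 641 and 1546, and the kinases Lats1 and Lats2 were within 2-fold. The factors Tead2 and Tead3 were lower, but their direction turned with the ES array in place of mGS. Fibroblasts also express Ccn1 and Ccn2, and the part of fibroblast RNA in them was not tested.

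Among cyclic nucleotide, calcium and G protein genes, 6 of 27 were higher and 8 lower. Gng3, a G protein gamma subunit, read 65.8 and 1714 and was at least 20.7-fold higher. Prkcb, a protein kinase C, read 699 and 51.7 and was at least 8.46-fold lower, although the knockout array read 76.02. Prkcd was lower as well at 937 and 378. Pde8a, a phosphodiesterase of cyclic AMP, was lower at 359 and 45.4, and Pde4d, another, was higher at 43.5 and 204. Other probe sets of Prkcd and Pde8a gave -0.13 and -0.17 on the log2 scale.

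**Figure D3:**
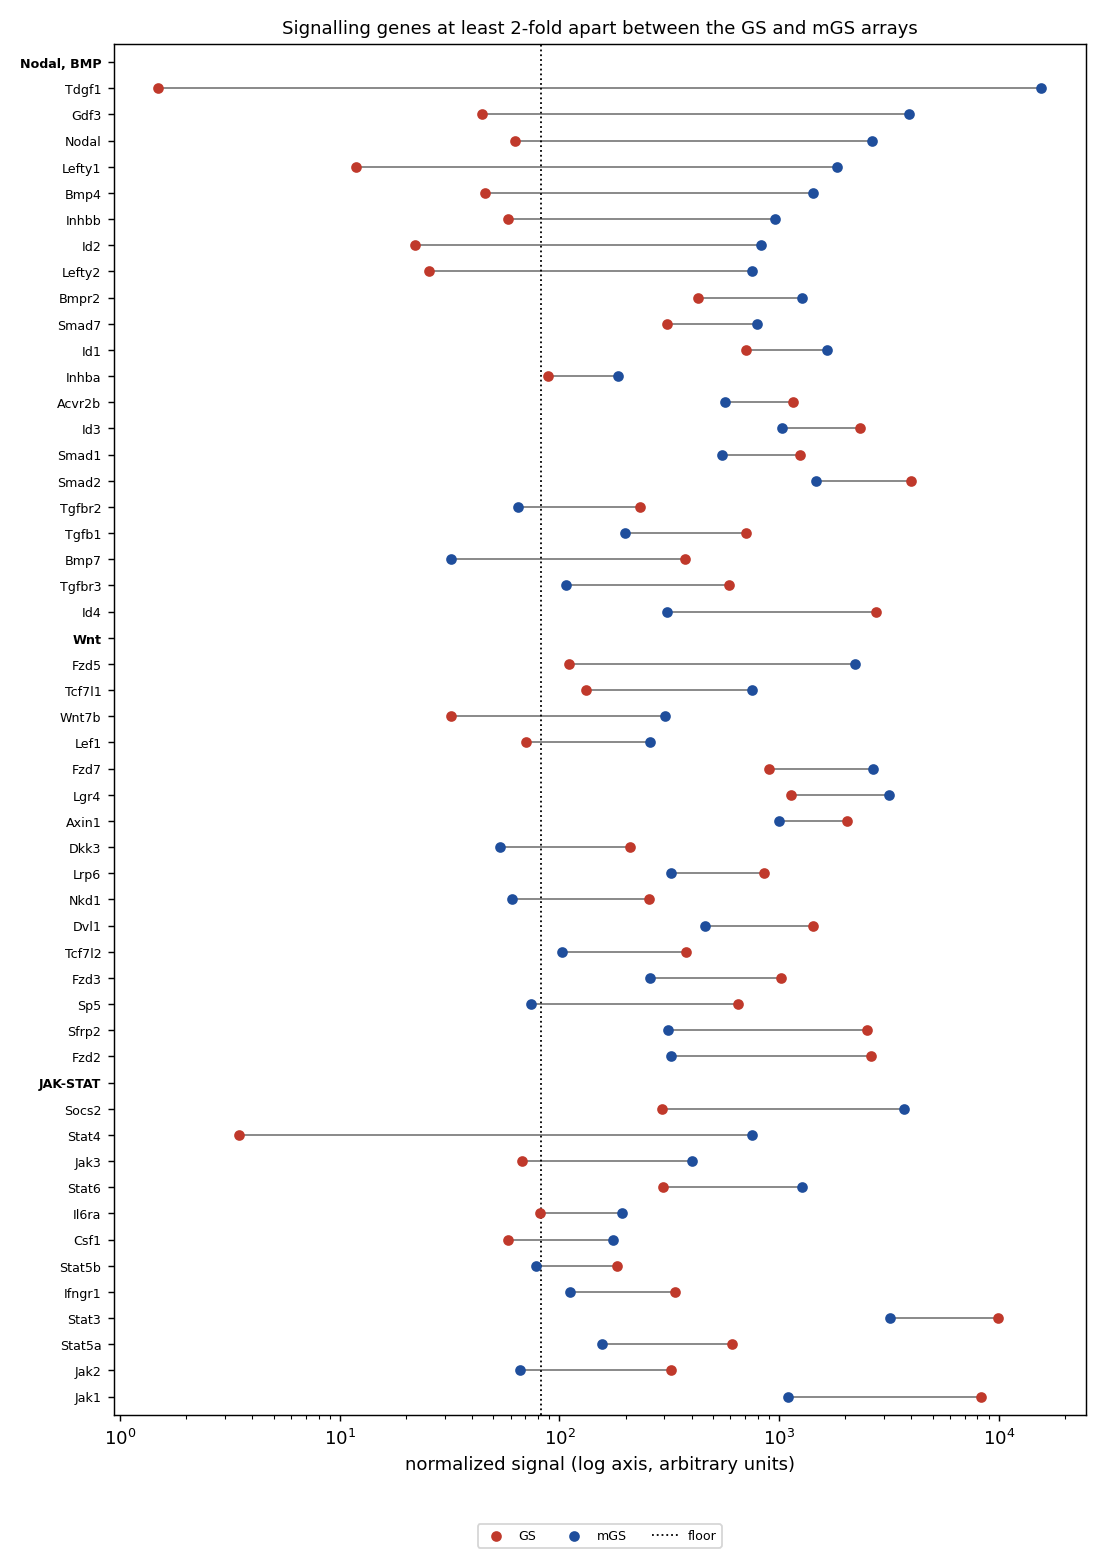
Signals of genes of the Nodal and BMP, Wnt and JAK-STAT lists at least 2-fold apart on the GS and the mGS array (horizontal log axis, arbitrary units), 1 line for each gene and a dotted line at the floor of 82.7. Nodal ligands start left of the floor on the GS array, and Frizzled, Jak and Stat genes run in both directions.

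Transcription factors were lower more often than higher, 65 against 49 of 249 compared, with a median of 0.02. Single families stood on one side.

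Klf factors, zinc finger proteins of which several maintain naive pluripotency, were higher in 9 of 14 and lower in none, with a median of 1.76. Klf2 read 109.5 and 6139 and was 56.05-fold higher, and Klf5 read 339 and 6272 and was 18.5-fold higher. These belong, with Klf4, to the members that support self-renewal. Klf3 read 141 and 1653, Klf12 read 94.1 and 1057 and Klf9 read 1279 and 4774. Klf10, Klf11, Klf13, Klf16 and Klf7 were within 2-fold. The knockout array read 706 for Klf2 and 779.6 for Klf3, both above the GS array. The related Sp4 went the other way at 343 and 86.7, and Sp1 and Sp3 were within 2-fold.

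Of 8 Hoxb genes measured, which pattern the body axis, 6 were compared, and all of these were under the floor on the mGS array. Hoxb1 and Hoxb7 were under it on both arrays. Hoxb6 read 606 and 15.9, Hoxb4 read 512 and 29.6 and Hoxb3 read 433 and 24.1. Hoxb2 read 408 and 9.27, Hoxb5 read 218 and 8.16 and Hoxb9 read 207 and 15.4. These 6 were compared through the GS signal alone, so a GS signal above the floor follows from the rule. The knockout array read between 54.96 for Hoxb9 and 357 for Hoxb2. In the other clusters, of Hoxa 4 genes were compared and Hoxa5 alone passed 2-fold, higher at 76.4 and 205, of Hoxc 2 were compared and neither passed, and none of 7 Hoxd genes reached the floor. Lhx1, a LIM homeobox factor found in spermatogonial stem cells, read 886 and 79.5 and was at least 10.7-fold lower, but the knockout array read 31.97.

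Other homeobox genes were lower in 6 and higher in 2 of 21. Otx2, a factor of the epiblast and forebrain, read 5.67 and 1094 and was at least 13.2-fold higher. Hhex, of endoderm and blood, read 1747 and 229 and was 7.62-fold lower, and Msx2 read 649 and 65.6. Pbx2, a partner of Hox proteins, was lower at 2296 and 597, though its other probe sets gave -0.63 and -0.30 on the log2 scale. Of the Zic genes, Zic1 alone was lower, and Zic5 was higher at 17.9 and 963, as was Zic2 at 13.9 and 203. Zic1 read 5085 on the GS array but 69.3 on the knockout array. Tbx3, a T-box factor of the naive state, read 60.4 and 1282 and was at least 15.5-fold higher.

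The Egr genes, which respond at once to growth factors, were lower in 3 of 4 with a median of -3.10. Egr4 read 1326 and 50.96 and was at least 16.05-fold lower, and Egr2 read 1295 and 41.5 and was at least 15.7-fold lower. Egr3 was lower at 387 and 31.01, though another of its probe sets gave -0.15 on the log2 scale. Egr1 was within 2-fold at -0.58. Egr4 read 3182 on the knockout array and Egr2 read 332. Fos and Jund, parts of AP-1, were lower at 973 and 348 and 4025 and 1341, and Jun and Junb were within 2-fold. Erg, an ETS factor, read 539.9 and 20.2 and was at least 6.53-fold lower, and Elf3, an epithelial ETS factor, went the other way at 37.5 and 732.

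Forkhead factors were lower in 6 of 21 and higher in 2. Foxf1 read 1255 and 74.5 and was at least 15.2-fold lower, with 6311 on the knockout array. Foxc2 read 1132 and 5.36 and was at least 13.7-fold lower. Foxo1, which marks spermatogonial stem cells, read 2858 and 1021 and was 2.8-fold lower, while Foxo3 and Foxo4 were within 2-fold. Foxd3, which guards pluripotency, read 10.9 and 565, and Foxh1, the partner of Smad2 in Nodal signalling, read 50.8 and 473. Among Sox factors, Sox3 of spermatogonia read 1703 and 209 and was 8.15-fold lower, and Sox15 read 56.05 and 1561 and was at least 18.9-fold higher. Sox4 was lower as well at 8674 and 1942.

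Of helix-loop-helix, Myc and C/EBP factors, 9 of 40 were higher and 9 lower. Myc, which drives growth, read 5.14 and 1835 and was at least 22.2-fold higher, and its knockout signal was 12.8. Mycn was 2.51-fold higher at 2472 and 6200.4, and Mycl and Max were within 2-fold. Epas1, a hypoxia-inducible factor, read 329 and 3636 and was 11.04-fold higher, whereas Hif1a differed by 0.34 on the log2 scale. Mitf and Tfe3, factors of the lysosome and pigment family, were higher at 74.6 and 857 and 536 and 1925. The germ-cell factors Sohlh1 and Sohlh2 were lower at 1054 and 11.9 and 4633 and 739.7. Neurog3, expressed by progenitor spermatogonia, was lower at 963 and 159, and Figla, known from the oocyte, at 658 and 55.5. Tcf12 and Tcf3, broad partners of these factors, were lower at 4323 and 1483 and 2238 and 980.4.

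Of 18 nuclear receptors compared, 3 were higher and 5 lower. Nr0b1, the orphan receptor Dax1, read 5.65 and 3234 and was at least 39.1-fold higher. Nr5a2, which can sustain Pou5f1, read 622 and 3046 and was 4.9-fold higher, against 698 on the ES array. Nr1d2, a repressor of the circadian clock, read 4613 and 962 and was 4.79-fold lower, and Nr2f6 was lower at 1624 and 399. The estrogen receptors Esr1 and Esr2 were under the floor on the mGS array, at 253 and 10.8 and 218 and 43.1.

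In the list of other zinc finger, Prdm, Ap2, Irf and E2f factors 14 of 56 were higher and 14 lower. Tfap2c, a factor of primordial germ cells and trophoblast, read 76.4 and 2124 and was at least 25.7-fold higher. Prdm14, which represses differentiation in pluripotent cells, read 27.9 and 804 and was at least 9.73-fold higher. Tfcp2l1, a factor of the naive state, read 120.0 and 1607 and was 13.4-fold higher. Mybl2, which runs with the cell cycle, read 643 and 7746 and was 12.05-fold higher, and Zfp57, which guards imprints, read 94.8 and 1088. On the lower side Dmrt1, a sex-determining factor of the testis, read 15665 and 2308 and was 6.79-fold lower. Sall3 read 1178 and 29.6 and was at least 14.3-fold lower, though its relatives Sall4 and Sall1 were higher at 4107 and 8569 and 1187 and 2527. Bcl6b, a target of GDNF in spermatogonial stem cells, read 1010.0 and 143 and was 7.06-fold lower. Irf8, of blood cells, was lower at 887 and 66.6, and Prdm16 was lower at 567 and 81.4. Other probe sets of Prdm16 gave -0.62 and -0.51 on the log2 scale.

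**Figure D4:**
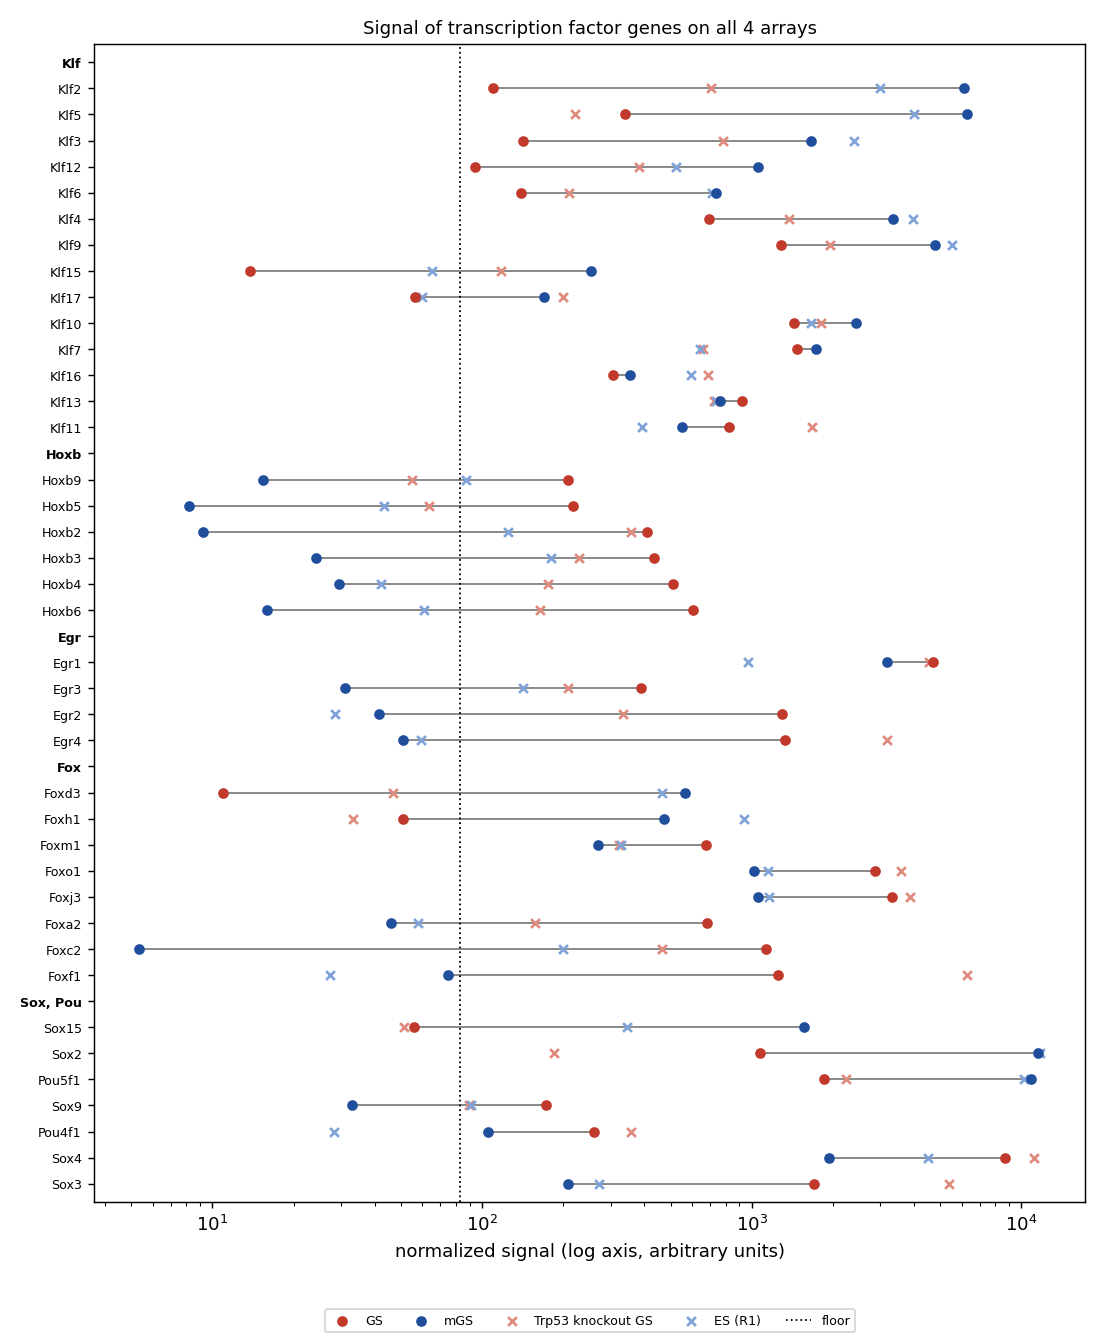
Signals (horizontal log axis, arbitrary units) of all Klf, Hoxb and Egr genes compared and of the Fox, Sox and Pou genes past 2-fold, with a line from GS to mGS (filled circles), crosses for the ES and knockout arrays and a dotted line at the floor of 82.7. The 9 Klf genes past 2-fold run to the right. The 6 Hoxb genes compared, which passed the floor on the GS array alone, run to the left and end under it.

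Relatives of a gene were then compared within 37 families. As with the lists, members were chosen with earlier results of these data known. In 36 families at least 2 members were compared, and in 14 of these 1 or more members were higher while 1 or more were lower. Of all genes compared 15.3% were higher and 16.5% lower, so a larger family can hold both directions at that rate. How many families would do so was not tested. Among the 14, the family of D-type cyclins counts only through Ccnd3, whose probe sets gave log2 differences from -1.86 to 2.18. Probe sets of closely related genes can share signal, and the signals of different genes are not set against each other here.

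Several of the split families paired a widely expressed gene with a relative known from the testis. Pdha1, the X-linked pyruvate dehydrogenase subunit, was 2.91-fold higher, and Pdha2, its copy active in spermatogenesis, read 1116 and 26.3 and was at least 13.5-fold lower. Tkt, the transketolase, read 4233 and 14079.6 and was 3.33-fold higher, and Tktl1 went from 6408 to 75.97. Slc25a5, the ADP/ATP carrier of dividing cells, read 8463 and 21828 and was 2.58-fold higher, and Slc25a31, the testis carrier, went to 338 from 14479.7. Slc25a4 was within 2-fold. In the cytochrome c pair only Cyct, the testis form, moved, at 2457 and 407, and Cycs was level at -0.17. For lactate dehydrogenase the testis form Ldhc was within 2-fold, at -0.87 on the log2 scale.

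Aldoa, the main aldolase, read 6144 and 17091 and was 2.78-fold higher, while Aldoc was 2.29-fold lower. Of the D-type cyclins, which carry growth signals to the cell cycle, Ccnd2 read 11311 and 488 and was 23.2-fold lower, and Ccnd1 was within 2-fold. Ccnd3 was 4.54-fold higher at 1155 and 5242, but another of its probe sets gave -1.86, so its direction was not settled by the array. Igf2bp1, which binds mRNAs of growth genes, read 3422 and 9733, and Igf2bp3 read 1504 and 101 and was 14.9-fold lower. Set against GS, both went the other way on the ES array, which read 3124 and 2277.

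Regulators of chromatin were among the split families. Kdm5c and Kdm6a, X-linked demethylases, read 115 and 436 and 701 and 1497. Kdm5a read 4602 and 944 and was 4.88-fold lower, Kdm6b read 7035 and 1915 and was 3.67-fold lower, and the Y-linked Kdm5d read 479 and 80.4. Sfmbt1, a partner of Polycomb proteins, was lower at 1311 and 282, and L3mbtl3 was higher at 68.6 and 308. Of the Polycomb ring finger proteins, Bmi1, which stem cells of many tissues need, read 3067 and 90.1 and was 34.02-fold lower. Pcgf5 was 6.17-fold lower at 6251 and 1014, while Pcgf1, Pcgf2, Pcgf3 and Pcgf6 were within 2-fold. The BAF subunits Smarcd3 and Smarca2 were lower at 447 and 94.5 and 342 and 76.2, and Smarca4 was within 2-fold.

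Heat shock proteins moved by family. Of the Hsp70 proteins, 4 of 8 were lower and none higher. Hspa1b, which heat induces, read 6765 and 367 and was 18.5-fold lower, and Hspa1a read 1351 and 94.1. Their sequences are nearly identical, so their probe sets can share signal. Hspa4l, known from the testis, was 6.72-fold lower, while Hspa8 and Hspa5, which cells use at all times, were within 2-fold. All 3 small heat shock proteins compared were higher, with Hspb1 at 277 and 18047, Hspb8 at 13.4 and 440.3 and Cryab at 109.7 and 237. Cryab read 273 on the knockout array.

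The remaining families with members on both sides concerned survival, lipid carriers, phosphatases and translation. Bcl2l11, the death-promoting Bim, read 362 and 2163 and was 5.97-fold higher, and Mcl1, which opposes it, was 2.31-fold higher at 4346 and 10021. Bik was lower at 298 and 99.4. Fabp3 and Fabp5, carriers of fatty acids, read 145 and 3831 and 556 and 5382, whereas their relative Crabp2 was lower. Another probe set of Fabp3 gave 0.47 on the log2 scale. Prkar2a and Prkar2b, regulatory subunits of protein kinase A, read 484 and 1005 and 1100.0 and 36.1. Of the myotubularins, lipid phosphatases, Mtmr3 and Mtmr6 were lower at 4442 and 1541 and 1935 and 509.6. Mtm1 and Mtmr1 were higher at 364 and 21544 and 118 and 242. Other probe sets of Mtm1 gave log2 differences from 0.57 to 6.63, and those of Mtmr1 and Mtmr3 gave 0.32 and -0.69. In translation, Eif2s3x and Pabpc4, which act in initiation and on mRNA tails, were higher at 1413 and 6715 and 1194 and 5361, and Eif4g3, an initiation scaffold, was lower at 1569 and 572. Eif2s3y, the Y-linked copy of Eif2s3x, was within 2-fold at -0.24.

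Tubulins were higher in 5 of 9 and lower in none. Tubb2b read 68.2 and 3630.4 and was at least 43.9-fold higher, with 1749 on the knockout array, and Tubb3, the neuronal beta tubulin, read 112 and 1077. Stmn2, a tubulin-binding stathmin of neurons, read 41.6 and 6122 and was at least 74.1-fold higher, and Stmn1 was level at -0.015. The de novo DNA methyltransferase genes were higher throughout, Dnmt3l at 43.5 and 9652, Dnmt3b at 2157 and 8249 and Dnmt3a at 1413 and 3171, though the log2 differences of the other probe sets of Dnmt3a ran from -0.59 to 1.41. Of the Tet genes, which oxidise methylated cytosine, Tet1 and Tet2 were higher at 41.2 and 5578 and 83.4 and 1746, and Tet3 was within 2-fold.

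**Figure D5:**
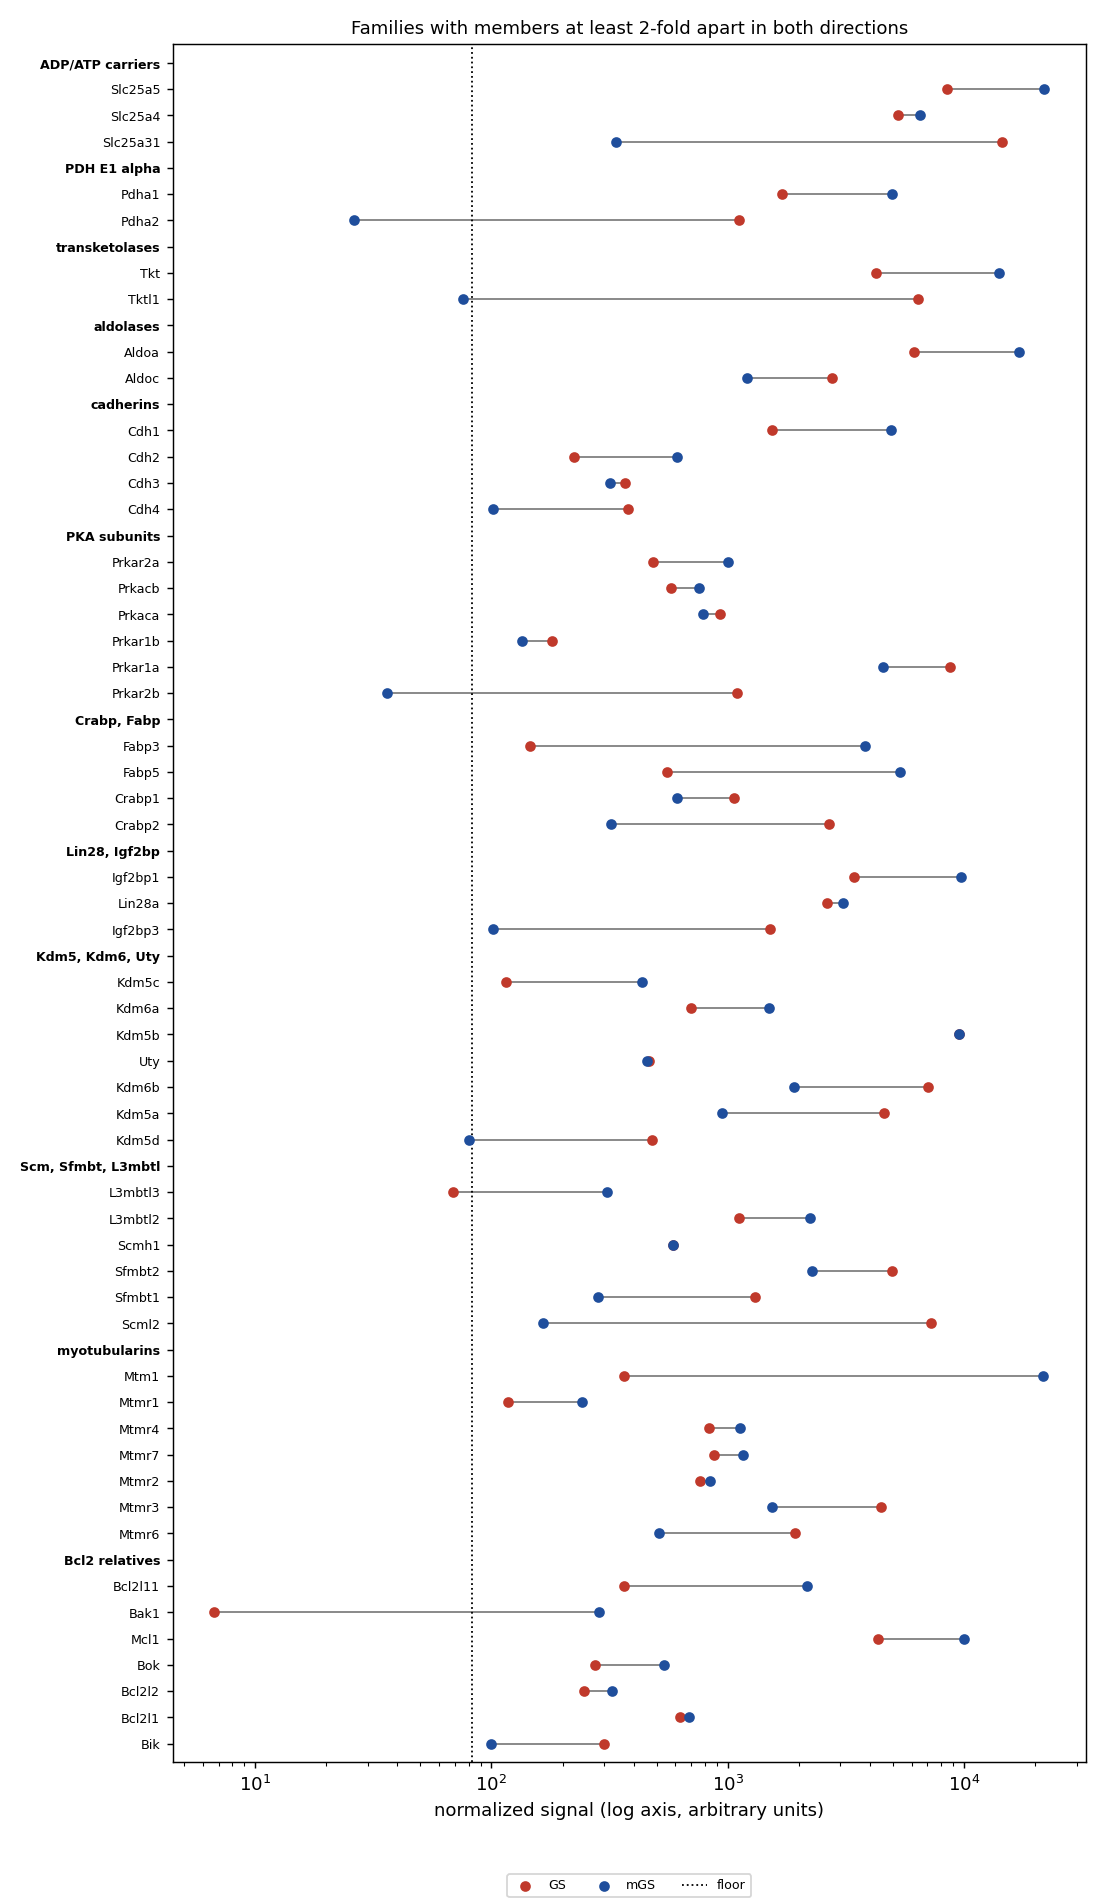
Signals on the GS and the mGS array (horizontal log axis, arbitrary units) of the members compared in 12 of the 14 families with members on both sides. The D-type cyclins and the translation factors are left out. A member whose mGS signal lies to the right of its GS signal read higher on the mGS array. One whose mGS signal lies to the left of its GS signal read lower there. Members within 2-fold are shown as well.

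Some of the greatest differences lay outside these groups. Apoe, the apolipoprotein that carries lipids between cells, read 272 and 8493 and was 31.2-fold higher on the mGS array, with 7221 on the ES and 70.9 on the knockout array. Mylpf, a myosin light chain of fast muscle, read 159 and 4749 and was 29.8-fold higher. Tfpi, the inhibitor of tissue factor in clotting, read 79.7 and 6665 and was at least 80.6-fold higher, and its ES signal was 1915. On the lower side, Pygl, the liver-type glycogen phosphorylase, read 4478 and 109 and was 40.9-fold lower. It thus lay opposite to the glycolytic genes it feeds. The meiotic genes Sycp1 and Sycp3, parts of the synaptonemal complex, read 7563 and 181 and 4873 and 139. Taf7l, a testis relative of the TFIID subunit Taf7, read 10895 and 165 and was 65.9-fold lower, and Taf7 was within 2-fold. Rbm46, an RNA-binding protein of germ cells, read 6807 and 193 and was 35.3-fold lower. Tsc22d3, which glucocorticoids induce, read 3195 and 58.5 and was at least 38.7-fold lower, though its other probe sets gave log2 differences from -5.30 to 0.48. Nlrp4c read 4881 and 23.4.

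Other probe sets of the same gene gave the only repeat within these arrays. Of 3204 further probe sets of genes called here, 93.3% went the same way and 55.5% also passed 2-fold, while 19 passed it the opposite way. Over 4470 genes, the SD between probe sets of 1 gene was 0.691 on the log2 scale. Nothing in these data measures the spread between cultures.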

How the data were processed

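Total RNA was extracted with Trizol and labelled as biotin cRNA by the standard Affymetrix procedure, per the labels' protocols. The authors deposited 1 linear intensity for each of 45101 probe sets and array; the program that summarised them was not given in the sources used here. Each deposited array had a trimmed mean (2% off each end) of 500. Control probe sets (64) were left out. Intensities of all 4 arrays were quantile normalized and taken to log2, and values under each array's median were raised to it. Of 35890 probe sets with an annotation, 34958 had 1 symbol and 932 had several, and 9160 used had none; 34754 were matched by gene ID to the GRCm38.p6 RefSeq table. With 1 array per group no test was run: a fold of 2 marks a difference, and scripts were tested on simulated data. Replication was not stated, and the arrays' number limits the precision. Genes to name were drawn from, per list, up to 8 members of greatest difference in each direction and members against the list's majority, members of a family, and over all genes the 12 greatest measured differences and 8 greatest bounds each way; not each of them is described. Nsdhl, Smad7, Id1, Fos, Tcf3, Sall1, Sall4 and Nf2 were named outside this rule after their values were seen. Predicted genes (120 past 2-fold) are not named. Of 1150 listed genes 80 were not analysed here and 188 were under the floor on both arrays. Members and lists were chosen with earlier results of these data known. Alternatives were other scalings, floors, pseudocounts and probe set choices, and the other arrays in place of each group. Some genes and 1 list are not reported here. Scripts ran under Python 3.11.15; numpy 2.4.6 and pandas 2.3.3 did the computing, the statistics library was scipy 1.17.1, and figures came from matplotlib 3.10.9.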

Additional observations from a re-analysis of the deposited data

How the results depend on the processing

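No paired analysis was possible because each group had 1 array. Without a floor, 3999 genes were higher and 4021 lower by 2-fold. On the deposited values 1689 were higher and 2337 lower, a median shift over genes of -0.13 on the log2 scale, and 42.0% of the called genes were higher against 48.2% after quantile normalization. The respiratory chain median was 0.24 on the deposited values and 0.32 after centring. All list and family members and the genes of greatest difference were followed, whether named here or not. Of the 485 of them past 2-fold, 464 stayed past it in the same direction on the deposited values and 474 after centring. With all probe sets of a gene averaged it was 390 of 466, and without probe sets that can bind several transcripts 391 of 409. With probe sets averaged, Agrn was at -0.12 and Bnc2 at 0.097, and without the cross-binding probe sets Mxd4 was at 0.042 and Smad2 at 0.50. With the knockout array in place of GS, 385 of 479 stayed, and the direction turned for Cd24a at -0.14, Cryab -0.20, Dll1 -0.60, Dmrtb1 0.19, Gnas 0.98, Id3 2.64, Jag1 0.88, Klf17 -0.23, Notch1 0.82, Nsdhl 0.038, Ptch1 -0.16, Rgs10 -0.017, S100a4 -0.68, Sfrp2 0.13, Tead2 0.36 and Tubb2a -0.21. With the ES array in place of mGS, 416 of 481 stayed, the filament and annexin median was 3.17, and the direction turned for Dkk3 at 0.24, Gnas 0.0090, Igf2bp1 -0.13, Igf2bp3 0.60, Lama3 -2.42, Tead2 0.31, Tead3 0.27 and Tgfbr2 1.42. The cause was not tested. Without chromosomes 1 and 11, a choice made after seeing the data, 1475 genes were higher and 1777 lower. Choosing paralogues by protein identity was not run. Signals near the floor bound what can be said of dim genes, and 2345 genes had a bound for their fold.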

Other observations

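Genes of chromosome 1 and chromosome 11 were on the higher side. On chromosome 1, 24.7% of 651 genes compared were higher on the mGS array and 11.5% were lower, with a median log2 difference of 0.26. On chromosome 11 the shares were 19.4% and 11.9% of 1042 genes, with a median of 0.19. Over the other 17 autosomes the medians ran from -0.23 to 0.048 and the shares of higher genes from 11.05% to 17.9%. On the X chromosome 23.8% of 408 genes were higher and 20.8% lower. Of 7 genes compared on the Y chromosome, 4 were lower, with a median of -2.53. Zic1, Lhx1, Sfrp2, Sp5, Prkcb and Cdh1 set the GS array apart from the knockout culture kept in the same medium.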
